A study of Mus musculus with 10 samples.

Results

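This account covers the stretches of DNA in neural stem and progenitor cells (NSPCs) that were called open in quiescent cells and in no other state. The peaks of 6 ATAC-seq lists were merged where they overlapped or abutted on chromosomes 1 to 19, which gave 105302 merged sites. Members were chosen by their peak calls: a peak in both quiescent lists and none in the 2 activated and 2 reactivated lists. This held for 1768 merged sites, or 1.68% of all. Because the calls chose the members, their peak heights are descriptions without a test, whereas sequence, annotation, H3K4me3 and nearby genes were not used in the choice.

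The cells were primary cultures from the brains of C57BL/6 mice at postnatal day 5, and such cultures mix stem cells with progenitors. Activated NSPCs grew with 20 ng/ml FGF2 and 20 ng/ml EGF. Quiescent NSPCs were held for 4 days, as the labels state (the methods give a shorter time), with 20 ng/ml FGF2 and 25 ng/ml BMP4 and without EGF, and reactivated NSPCs went from 4 such days into growth medium for 9 to 12 days. Each state had 2 ATAC-seq libraries from separate cultures, and H3K4me3, a histone mark of promoters, was mapped in 1 library each of quiescent and activated cells. The lists held 53586 and 59108 peaks on chromosomes 1 to 19 in quiescent replicates 1 and 2, 56961 and 46071 in activated cells and 103186 and 103783 in reactivated cells. Lists hold no read counts, so the depth behind a peak cannot be given. Read totals that the study lists for its libraries, not used here, were highest for quiescent replicate 2, and a missing peak means no call rather than closed chromatin. Of 20 astrocyte and radial glia genes, 19 had a site open in all 6 libraries, against 65.2% of all genes. Sites counted within 25 kb upstream to 10 kb downstream of the transcription start site (TSS). The same held for 10 of 15 neuron, 10 of 15 oligodendrocyte lineage, 2 of 12 microglia and 1 of 12 endothelial genes. Lists that mark no cell type ranged from 14 of 20 cell adhesion and matrix genes to 20 of 20 cell cycle genes. A high share therefore does not identify the cells, and an open site does not give a gene's expression.

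BMP4 binds receptors that phosphorylate SMAD1, SMAD5 and SMAD9, and these enter the nucleus together with SMAD4. SMAD4 and SMAD3 recognise the SMAD box CAGAC, whose core on the other strand is GTCT, and BMP-activated SMADs prefer GC-rich sequence such as GGCGCC or GGAGCC. In known BMP response elements both parts lie side by side at a fixed short distance. Nuclear factor I (NFI) proteins, which bind the core TTGGC, maintain quiescence in neural stem cells, while the E-box CAGCTG is bound by bHLH factors.

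The members that carried the clearest sequence feature are shown first. In the 200 bp window centred on the summit, 31 members held GGCGCC or GGAGCC followed after 5 bases by GTCT on either strand, called the BMP composite element here. The element was searched for after the shares of the listed motifs had been seen. Of the 12 strongest, 10 are printed from GRCm38 (mm10) with the strand that reads the GC-rich part first. Capitals mark both parts of the element, and each line names the protein-coding gene with the nearest TSS, which need not be the gene a site acts on.
Trim32, chr4:65426688-65426722, plus strand: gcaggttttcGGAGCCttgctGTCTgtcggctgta
Dock10, chr1:80900868-80900902, plus strand: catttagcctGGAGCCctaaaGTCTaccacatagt
Rsl24d1, chr9:73270521-73270555, minus strand: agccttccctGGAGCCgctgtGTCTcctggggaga
Ctnna2, chr6:78115164-78115198, plus strand: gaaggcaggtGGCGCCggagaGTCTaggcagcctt
Fam196b, chr11:34341940-34341974, minus strand: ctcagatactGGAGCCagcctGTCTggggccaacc
Vav3, chr3:109533506-109533540, minus strand: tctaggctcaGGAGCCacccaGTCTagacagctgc
Dctd, chr8:48380124-48380158, plus strand: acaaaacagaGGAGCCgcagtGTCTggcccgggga
Cdh6, chr15:13284268-13284302, plus strand: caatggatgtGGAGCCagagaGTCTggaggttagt
Mdm4, chr1:132977521-132977555, plus strand: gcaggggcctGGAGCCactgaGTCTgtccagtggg
Diras2, chr13:52321451-52321485, plus strand: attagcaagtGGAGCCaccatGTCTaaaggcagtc

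A related feature, the SMAD palindrome GTCTAGAC, was found in 18 members. The 6 strongest are printed on the plus strand of GRCm38, with the palindrome in capitals. The site near Vav3 held both, and there the palindrome shares its GTCT with the composite element.
Bbs10, chr10:111339497-111339524: tagatctaagGTCTAGACactcctggaa
Cxcr4, chr1:128613225-128613252: acttgttcctGTCTAGACtacatctctc
Cntnap4, chr8:113092771-113092798: gagacacacaGTCTAGACcactctcttg
Gbx2, chr1:89721423-89721450: cgctgcctgtGTCTAGACagccaggagc
Vav3, chr3:109533502-109533529: cacagcagctGTCTAGACtgggtggctc
Pgr, chr9:8746119-8746146: aagttttagtGTCTAGACgtttgcatga

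Whole summit windows of 2 of the 3 strongest members show how the copies lie around the summit. Neither holds the NFI palindrome, TTGGC followed after 5 bases by GCCAA. Capitals mark SMAD boxes (CAGAC or GTCTG) and both parts of a composite element, on the plus strand of GRCm38.
Nrg3, chr14:38824896-38825095: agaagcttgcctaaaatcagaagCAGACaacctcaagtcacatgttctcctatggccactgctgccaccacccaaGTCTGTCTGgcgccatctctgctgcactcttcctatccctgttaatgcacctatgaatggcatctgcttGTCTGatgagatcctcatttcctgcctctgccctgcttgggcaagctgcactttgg
Dock10, chr1:80900849-80901048: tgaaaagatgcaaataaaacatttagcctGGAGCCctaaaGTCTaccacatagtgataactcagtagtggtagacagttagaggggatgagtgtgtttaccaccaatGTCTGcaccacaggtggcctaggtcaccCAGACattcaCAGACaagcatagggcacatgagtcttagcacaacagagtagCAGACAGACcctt
The Nrg3 window held 4 SMAD boxes and the Dock10 window 5, counted with overlaps.

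Peak height was given as the fold enrichment that the peak caller assigned to the summit over local background. It was low for most members. In quiescent replicate 1 the members ranged from 1.46 to 12.2 with a median of 3.42, and in replicate 2 from 1.49 to 10.2 with a median of 2.98. These medians lay at percentiles 31.9 and 35.2 of each list's own peaks, so members were weaker than the typical peak of both libraries. Sites with a peak in both quiescent and both reactivated libraries and in no activated one (3646) are called reopened sites here. The name is only a label for that pattern of calls. Reactivated cells came from quiescent ones, and no closing between these states was measured, so such sites may have stayed open. Their medians were 4.08 and 3.52. Constitutive sites, open in all 6 libraries (22589), had medians of 5.96 and 5.58.

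Heights in both quiescent libraries are given as a description, since a peak in both was the rule. The Pearson correlation of log2 fold enrichment between them was 0.658 across the 1768 members, which are sites and not replicates. Their summits lay a median of 28 bp apart, and 1259 members (71.2%) had summits within 50 bp of each other. In 83 members both values were above 5.

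**Figure D1:**
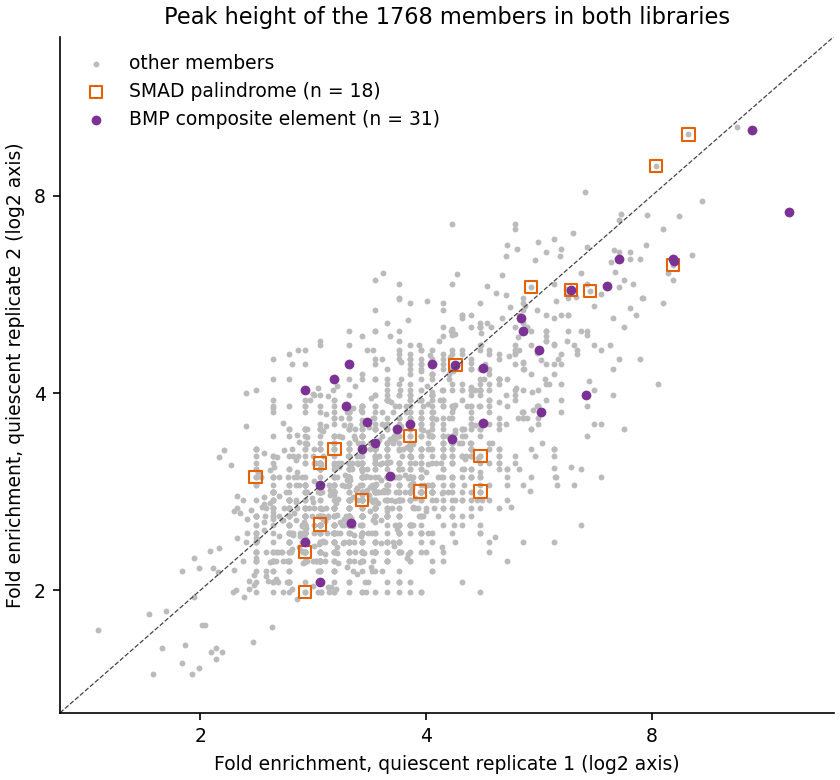
Fold enrichment of each member in quiescent replicate 1 (x axis) and replicate 2 (y axis), both on log2 axes. Gray points are the 1768 members, purple points the 31 with the BMP composite element and orange squares the 18 with the SMAD palindrome; the dashed line marks equal values, and several marked sites lie among the highest points.

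The 12 members with the highest mean percentile over both libraries lay 8.86 to 648 kb from the nearest protein-coding TSS. The strongest lay in an intron of Astn2, an astrotactin of migrating neurons, at chr4:65426478-65427017, with fold enrichments of 10.9 in replicate 1 and 10.1 in replicate 2. The second lay in an intron of Nrg3, a neuregulin that binds the receptor ERBB4, at chr14:38824565-38825328, with values of 10.4 and 10.2. The member with the highest value in replicate 1 was intergenic, 142 kb upstream of Dock10, an exchange factor of small GTPases, at chr1:80900707-80901272, with values of 12.2 and 7.55. Of these 3, only the site near Dock10 differed in height between the libraries by more than 1.5 times.

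Next in rank were a site 40.9 kb downstream of the Bbs10 TSS, with values of 8.96 and 9.93, and an exonic site of the gene model 1700065J11Rik, 8.86 kb upstream of Fam180a, with values of 9.33 and 7.85. A site 21 kb upstream of Cxcr4, the receptor of the chemokine CXCL12, had values of 8.1 and 8.9. The remaining 6 lay 20.7 kb from Foxi2, 398 kb from Lmo4, 224 kb from Tox, 19.3 kb from Ppp1r2, 44.3 kb from Nsg2 and 157 kb from Rsl24d1. Foxi2 and Tox encode transcription factors and Lmo4 a LIM-domain cofactor, and none of the 12 sites overlapped H3K4me3 in either state.

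The rule turns on single calls, so values at its edge are given once. A member at the lower edge, at chr9:27979852-27980209, had fold enrichments of 2.37 and 1.99, with a −log10 q of 1.3 in replicate 2, the limit of the list. Just outside, the site at chr10:85414295-85414704 had values of 2.55 and 1.92 in quiescent cells and was left out for a peak of 2.19 in reactivated replicate 1. In 910 members (51.5%) the weaker quiescent library had a −log10 q under 5. Of the 1385 sites with both quiescent peaks and a peak in exactly 1 other library, 408 (29.5%) had a −log10 q under 5 in that library. Reactivated replicate 2 was that library in 880 sites, reactivated replicate 1 in 372, activated replicate 1 in 81 and activated replicate 2 in 52. A further 2932 sites were open in quiescent replicate 1 alone and 4703 in replicate 2 alone.

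Members were distal. A member counted as promoter within 1 kb of an annotated TSS (GENCODE M21), and otherwise as exon, intron or intergenic in that order. Promoters made up 129 members, or 7.3% (exact 95% binomial interval 6.13 to 8.61, which here and below covers counting error over sites and not differences between cultures). The same share was 12.3% (11.2 to 13.4) of reopened sites, 17% (15.9 to 18.2) of activation sites (4134, open in both activated and both reactivated libraries and in no quiescent one), 54.5% of constitutive sites and 25.5% of all merged sites. Introns held 902 members (51%) and intergenic sequence 649 (36.7%), and 980 members (55.4%) lay over 50 kb from the nearest protein-coding TSS, against 49.2% of reopened, 47.3% of activation and 24.9% of constitutive sites. The interval of the members' promoter share did not overlap that of any compared class. Members were also the narrowest of the compared classes, with a median width of 293 bp against 371 bp for reopened, 437 bp for activation and 659 bp for constitutive sites, although the median of all merged sites was 282 bp.

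H3K4me3 was almost absent from the members. A broad H3K4me3 peak overlapped 28 members (1.58%, 1.05 to 2.28) in quiescent cells and 19 (1.07%, 0.648 to 1.67) in activated cells, each from 1 library. With lists of equal length these shares were 3.84% and 3.11%, and without quiescent replicate 2, 89 of 4738 members overlapped the mark in activated cells, a share over 1.5 times higher. Reopened sites were at 7.41% and 6.01%, activation sites at 14.7% and 13.8% and constitutive sites at 58.1% and 55.9%. Among promoter sites alone the shares also differed: 16 of 129 members (12.4%, 7.26 to 19.4) had the mark in quiescent cells, against 159 of 448 reopened sites (35.5%, 31.1 to 40.1) and 11209 of 12303 constitutive sites (91.1%). Of the 28 marked members, 17 were marked in both states and 11 in quiescent cells alone, and 2 more were marked in activated cells alone.

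**Figure D2:**
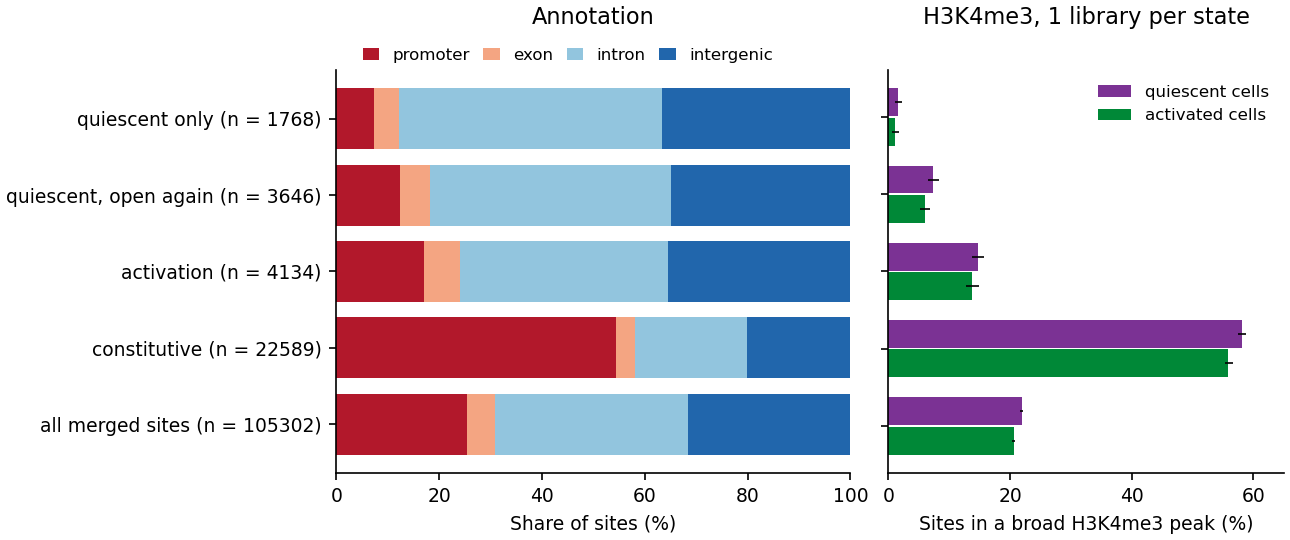
Left, share of sites (%) in promoters, exons, introns and intergenic sequence for members (labeled quiescent only), reopened (labeled quiescent, open again), activation and constitutive sites and all merged sites; right, share of sites (%) that overlap a broad H3K4me3 peak in quiescent (purple) and activated (green) cells, with exact 95% binomial intervals. Members have the lowest promoter share (7.3%) and the lowest H3K4me3 shares (1.58% and 1.07%).

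Among the 11 members marked in quiescent cells alone, the highest lay 1.85 kb downstream of the TSS of Zfp697, a zinc finger gene, with fold enrichments of 5.6 and 6.38. The others of the 5 highest lay at the promoter of Tmem150a (4.59 and 4.45), in introns of Macf1, a linker of actin and microtubules (4.59 and 2.6), and Arap2, a GTPase-activating protein of ARF (3.85 and 2.68), and 1.92 kb from the TSS of Dpy19l4 (3.15 and 2.89). With 1 ChIP library per state, a peak called in one state and not in the other has no replicate check.

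Members with a protein-coding TSS within 1 kb had moderate heights. The strongest 10 were at Col9a1, a chain of collagen IX (5.96 and 5.52), Tusc3, an oligosaccharyltransferase subunit (7.1 and 4.36), Lyz2, lysozyme (5.92 and 4.75), Hsd17b4, an enzyme of peroxisomal fatty acid oxidation (5.63 and 4.6), Eml5 (5.39 and 4.47), the tetraspanin Cd9 (5.16 and 4.55), Pfkfb2, which controls glycolysis (4.73 and 5.04), Tmem150a, Pmp2, a lipid-binding protein of myelin (4.6 and 3.97), and Pkd2, the cation channel polycystin-2 (4.47 and 4.05). Several of these TSSs are alternative starts inside the gene: the Col9a1 site lay 18.6 kb, the Tusc3 site 40.2 kb and the Cd9 site 17.5 kb downstream of the start of the gene record. Of the 10, the Hsd17b4 site overlapped H3K4me3 in both states and the Tmem150a site in quiescent cells alone. Lyz2 and its neighbor Lyz1, which also had a member at its promoter (3.39 and 2.14), are near-identical copies, so reads could be split between them.

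Sequence around the summits differed from that of the other classes in SMAD motifs. Shares are of 200 bp summit windows with at least 1 exact match on either strand; a match is not evidence of binding. The SMAD box CAGAC, searched after the other values were seen, was in 1029 members (58.2%, 55.9 to 60.5), against 49.3% (47.6 to 50.9) of reopened, 43% (41.5 to 44.5) of activation, 39.9% of constitutive and 43.8% of all merged sites. Windows of the same size 1 kb to each side of the members held it in 35.7% (34.1 to 37.3). In 419 members (23.7%) the window held more than 1 copy, compared with 16.9% of reopened, 10.8% of activation and 10.3% of constitutive sites. Without quiescent replicate 1 the SMAD box share of members was 50.4% (49.2 to 51.6), and its interval overlapped that of reopened sites called from all lists. Without replicate 2 the share was 54.7% (53.3 to 56.1), above that interval. With all lists, the interval of the members' share lay above that of every class compared. Members were less GC-rich than those classes, with a median GC content of 48.5% against 50% in reopened, 52.5% in activation and 58.5% in constitutive sites and 44% in the flanking windows, and this was not adjusted for.

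The SMAD box also clustered at the summit. Within 50 bp of it, members had on average 13 copies per 25 bp per 100 sites, against 6.5 beyond 400 bp, a ratio of 2. That ratio was 1.43 at reopened sites, 1.13 at activation sites and 1.11 at constitutive sites, although all 4 classes had 6.16 to 6.61 copies in the outer bins. The NFI core behaved differently and rose at the summits of all 4 classes, with ratios of 2.2 in members, 2.77 in reopened, 1.86 in activation and 2.05 in constitutive sites.

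**Figure D3:**
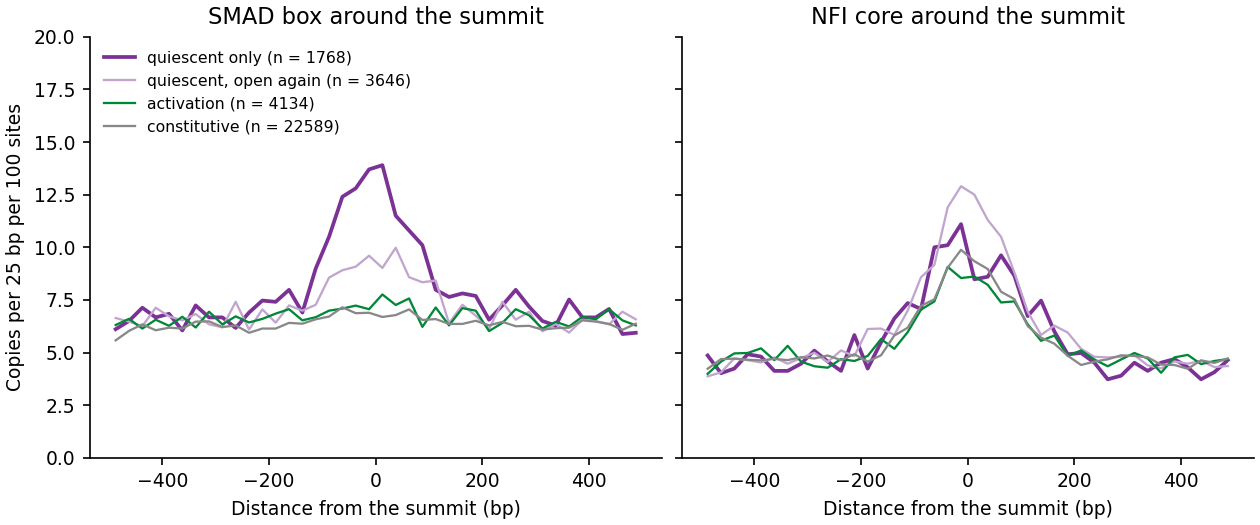
Copies of the SMAD box CAGAC (left) and of the NFI core TTGGC (right) per 25 bp bin and 100 sites, against distance from the summit (bp), in members and 3 compared classes. The SMAD box rises at the summit to 2 times its outer level in members and to 1.11 times at constitutive sites, while the NFI core rises in every class.

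The composite element was rare but more frequent in members than in every class compared. It was in 31 members (1.75%, 1.19 to 2.48), against 13 reopened sites (0.357%, 0.19 to 0.609), 5 activation sites (0.121%, 0.0393 to 0.282), 51 constitutive sites (0.226%, 0.168 to 0.297) and 3 of 3536 flanking windows (0.0848%, 0.0175 to 0.248). Across all merged sites 171 windows held it (0.162%), so members, 1.68% of the sites, held 18.1% (12.7 to 24.7) of the windows with the element. The share depended on the calls. It was 0.599% (0.426 to 0.817) of 6515 members when quiescent replicate 1 was left out. When replicate 2 was left out, it was 0.781% (0.55 to 1.07) of 4738 members. Both intervals overlapped that of reopened sites called from all lists (0.19 to 0.609). The share was 0.973% with lists cut to equal length and 2.88% with a −log10 q of at least 10 in every list. The highest compared class, reopened sites, was at 0.454% (0.208 to 0.861) with the q cutoff, against an interval of 1.74 to 4.47 in members. With lists of equal length it was at 0.292% (0.0602 to 0.85), and the interval of the members (0.679 to 1.35) overlapped that.

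The count varied with the distance and order of both parts. With the GC-rich part first and 5 bases between, 31 members matched. The 25 other arrangements tried, spacings of 0 to 12 bases in either order, gave 0 to 9 members each, at most 0.509%. The same GC-rich sequences, whatever followed them, were no more frequent in members (24.2%) than in reopened (24.2%) or activation sites (24.1%), were most frequent in constitutive sites (38.9%) and were less frequent in the flanks of the members (9.73%, 8.77 to 10.8). The element lay a median of 32 bp from the summit, and 23 of 31 copies lay within 50 bp of it. It began with GGAGCC in 25 copies and GGCGCC in 6, and the first base of the spacer was A in 21 (67.7%, 48.6 to 83.3), against 43 of the 140 copies in other merged sites (30.7%, 23.2 to 39.1). That position was the most uneven of the 5 spacer bases in these same 31 copies. The other spacer bases were not compared with other sites, so this is a description only.

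**Figure D4:**
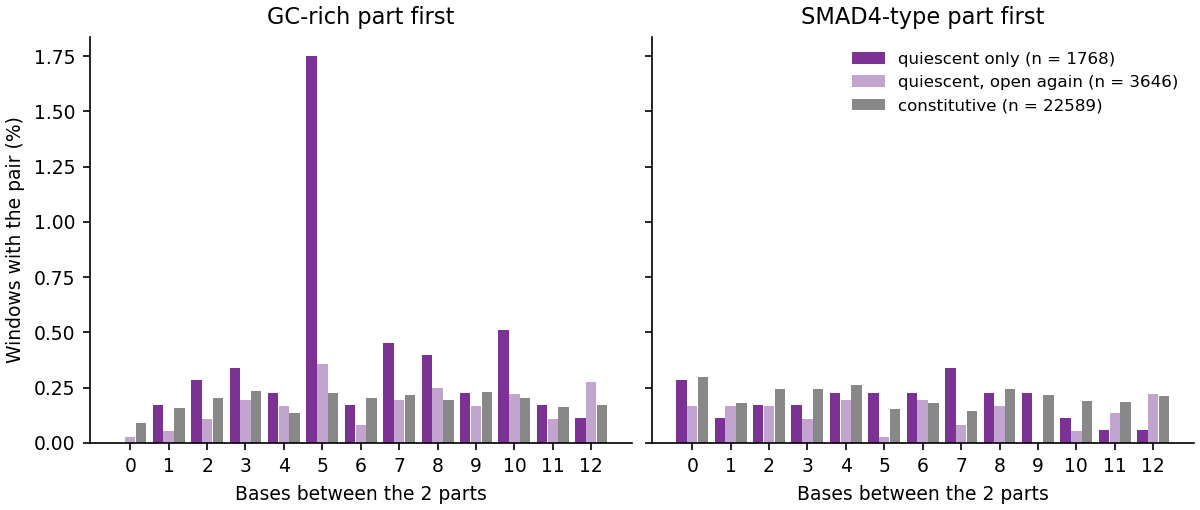
Share of 200 bp summit windows (%) with the GC-rich part and the SMAD4-type part GTCT, by the number of bases between them, with the GC-rich part first (left) or second (right), in members, reopened sites (labeled quiescent, open again) and constitutive sites. Members stand out at 5 bases with the GC-rich part first (1.75%) and reach at most 0.509% elsewhere.

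The SMAD palindrome, one of the 18 motifs listed from the start, had a similar pattern at lower counts. It was in 18 members (1.02%, 0.604 to 1.6), 11 reopened sites (0.302%, 0.151 to 0.539), 6 activation sites (0.145%, 0.0533 to 0.316), 45 constitutive sites (0.199%, 0.145 to 0.266) and 7 flanking windows (0.198%, 0.0796 to 0.407). The share was 0.445% (0.298 to 0.639) when quiescent replicate 1 was left out and 0.612% (0.41 to 0.878) when replicate 2 was. Both intervals overlapped that of reopened sites called from all 6 lists. With lists of equal length the share was 0.667% (0.428 to 0.991), and its interval overlapped that of reopened sites (0.292%, 0.0602 to 0.85). Together 47 members (2.66%) held the composite element, the palindrome or, in 2 cases, both. Sites near Apba2 and Vav3 were those 2. Of the 12 strongest members, 4 held the composite element (near Trim32, Dock10, Nsg2 and Rsl24d1) and 2 the palindrome (near Bbs10 and Cxcr4).

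Motif shares by peak height are a description only, since the same calls chose the members and the composite element and SMAD box were searched after values were seen. When members were split into terciles by mean percentile of fold enrichment, the composite element was in 4 of 589 of the lowest (0.679%), 7 of 589 of the middle (1.19%) and 20 of 590 of the highest tercile (3.39%). For the SMAD box the shares were 52.1%, 57.7% and 64.7%. The SMAD palindrome was in 4, 4 and 10 members. The NFI core was in 50.3%, 53.1% and 51.7% and the E-box in 11%, 11.2% and 12.7%. Windows that were at least 50% repeat-masked made up 12.7% of the lowest and 5.08% of the highest tercile. Over all members their share was 7.58% (6.39 to 8.91), above the 1.62% of reopened, 1.06% of activation, 1.89% of constitutive and 4.75% of all merged sites. Of the 47 members with a composite element or palindrome, 24 were intronic, 18 intergenic and 3 at promoters, and 2 overlapped H3K4me3 in quiescent cells.

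The composite element was scarce in every neighboring call pattern. It was in 6 of 2932 sites open in quiescent replicate 1 alone (0.205%), 7 of 4703 open in replicate 2 alone (0.149%), 3 of 1252 open in both quiescent and exactly 1 reactivated library (0.24%) and 0 of 133 open in both quiescent and exactly 1 activated library, which allows a share of up to 2.74%. Sites open in both reactivated libraries alone (15307) held it in 12 cases (0.0784%). The SMAD box was in 52.6% and 47.4% of the sites of replicate 1 or 2 alone, 53% of those with 1 reactivated library and 42.9% (34.3 to 51.7) of those with 1 activated library, all below the 58.2% of members.

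Other motifs also separated the members from the activation sites. The E-box was in 11.7% (10.2 to 13.2) of members, 16.2% (15 to 17.4) of reopened and 44.2% (42.7 to 45.8) of activation sites, with 8.6% in the flanking windows. SOX motifs (ACAAAG or ACAATG) were in 26.8% of members, near the flanking 27.4%, and in 39.7% of activation sites. AP-1 motifs (TGANTCA), bound by FOS and JUN, were in 6.17% of members and 12.6% of activation sites, with 6.39% in the flanks. The NFI core was in 51.7% (49.3 to 54) of members, below the 55.8% (54.2 to 57.5) of reopened sites and above the 27.6% of flanks, whereas the NFI palindrome was in 1 member, near Ttc24, and 2 reopened sites. Without quiescent replicate 1 the NFI core was in 38.8% of members and without replicate 2 in 42.8%, below the 46.6% of activation and 46.8% of constitutive sites called from all 6 lists. For the E-box, SOX and AP-1 motifs, members were near their flanks or between flanks and reopened sites.

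CTCF motifs, marks of insulator sites, were in 9 members (0.509%, 0.233 to 0.964) against 3.62% of reopened, 1.94% of activation and 3.32% of constitutive sites. GC boxes (GGGCGG) of SP and KLF factors were in 2.43% of members and 37.6% of constitutive sites, and ETS motifs (CCGGAA) in 1.87% and 13.9%. Both motifs of proximal promoters were thus near the flanking 2.71% and 1.56%. Homeodomain motifs (TAATTA) were in 8.37% (7.12 to 9.76) of members, above 5.81% (5.08 to 6.62) of reopened and 3.36% of activation sites, while the flanks held 6.25% (5.47 to 7.1). The motif ACANNNTGT of steroid receptors was in 11.4% (9.93 to 12.9) of members, 7.95% (7.1 to 8.88) of reopened, 5.56% of activation sites and 7.04% (6.22 to 7.94) of flanks. The members' share of that motif lay above all of these, and that of the homeodomain motif lay just above the interval of the flanks. Of the remaining motifs, RUNX (TGTGGT, 15.5% of members and 14.6% of flanks), FOXO (TGTTTAC, 2.49% and 2.6%) and STAT (TTCCNGGAA, 0.622% and 0.339%) did not stand apart from the flanks beyond their intervals, and neither did the POU octamer ATGCAAAT (2.09% and 1.16%). RFX motifs (GTTGCCA), at 3.56% (2.75 to 4.54), lay above the flanking 1.87% (1.45 to 2.37) but below the 7.33% of activation sites, and TEAD motifs (GGAATG), at 13.7% (12.1 to 15.4), lay above the flanking 10.9% (9.85 to 11.9) and matched the 13.7% of activation sites.

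**Figure D5:**
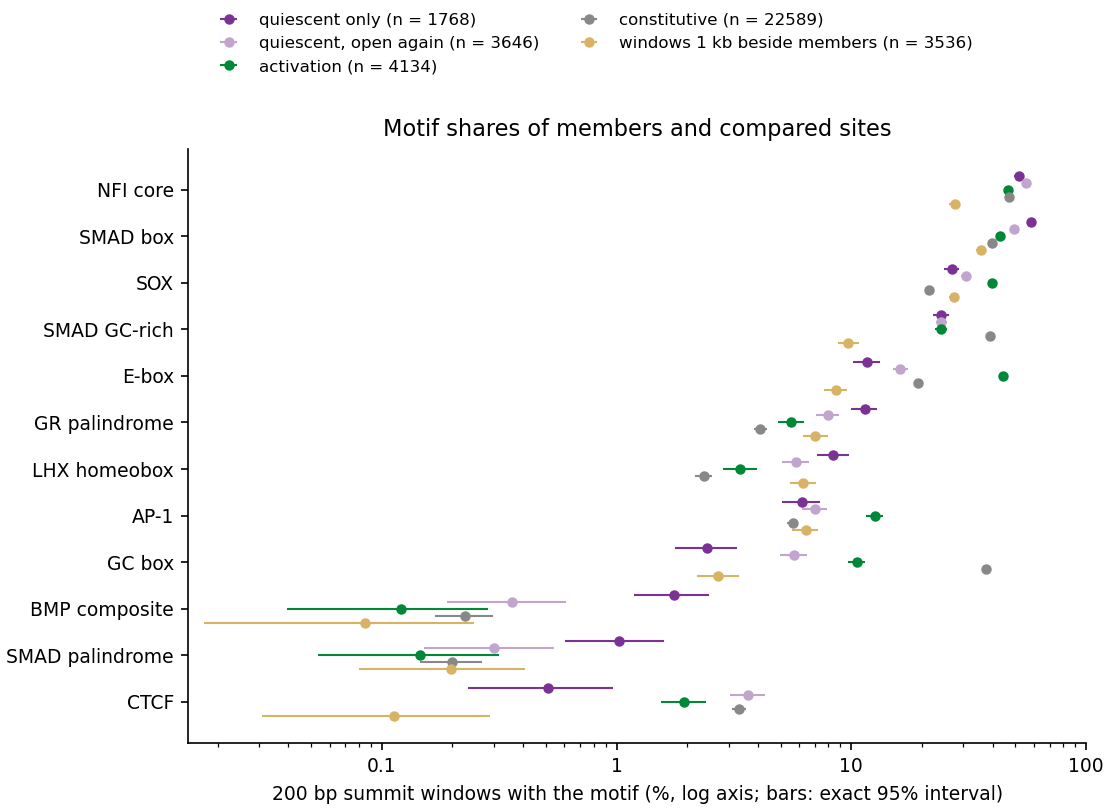
Share of 200 bp summit windows (%, log axis) with each of 12 motifs in members, 3 compared classes and windows 1 kb to each side of the members; bars are exact 95% binomial intervals. Members are highest for the SMAD box, the composite element and the SMAD palindrome. They are also highest for the steroid receptor motif (labeled GR palindrome) and the homeodomain motif (labeled LHX homeobox). For the E-box they are far below activation sites (11.7% against 44.2%).

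Whether calls from some libraries held in others was checked with libraries that had not chosen the sites. Of 6245 sites open in quiescent replicate 1 and in neither activated nor reactivated replicate 1, 2738 (43.8%, 42.6 to 45.1) had a peak in quiescent replicate 2, 144 (2.31%) in activated replicate 2 and 1462 (23.4%) in reactivated replicate 2. In the reverse direction, 2304 of 7670 sites (30%, 29 to 31.1) were found again in quiescent replicate 1, 4.65% in activated and 12.7% in reactivated replicate 1. In both directions the quiescent library recovered more of these sites than the longer reactivated list did. The same choice of sites gave 60.9% and 63.6% for the reactivated libraries, above both quiescent values. It gave 13.4% and 17.9% for the activated libraries, where 14.5% and 5.55% of the sites had a peak in the other quiescent library. In the other reactivated library 34.9% and 27.2% of those activated sites had a peak, more than in the other activated library.

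Sites with the composite element are given here as a description only, because the element was chosen after its share in members was known and most of these sites are members themselves. Of the 39 sites from replicate 1 with the element, 33 (84.6%) had a peak in quiescent replicate 2, 2 in reactivated replicate 2 and 0 in activated replicate 2, while 43.6% of the 6206 sites without it had a peak in quiescent replicate 2. The reverse gave 33 of 40 (82.5%) against 29.8%. By tercile of height in replicate 1, from lowest to highest, sites with the element had a peak in replicate 2 in 2 of 6, 9 of 11 and 22 of 22 cases, against 22.4%, 41.1% and 67.5% of sites without it. In reverse the counts were 1 of 3, 3 of 7 and 29 of 30, against 11.4%, 21.9% and 56.3%. In the lowest tercile of both directions and the middle tercile of the reverse, the intervals of sites with the element (4.33 to 77.7, 0.84 to 90.6 and 9.9 to 81.6) included the share of sites without it.

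Few genes had a member close by. Only 393 members (22.2%, 20.3 to 24.2) lay in the window of 25 kb upstream to 10 kb downstream of a protein-coding TSS. This share was near the 25.3% (23.9 to 26.7) of reopened sites. It was below the 27.7% (26.3 to 29.1) of activation, 37.6% of all merged and 59.7% of constitutive sites. These members touched 513 of 20807 genes, or 2.47%, with 491 genes having 1 member and 22 having 2. The 10 of these 22 with the tallest member were Cxcr4, Bend6, Lyz2, Snapc3, Ptpn4, Arhgef4, Fhod3, Arap2, Setd3 and Cdc20. At Cxcr4 the sites lay 21 and 22.7 kb upstream, and the farther one had fold enrichments of 3.56 and 2.9. At Arhgef4, an exchange factor of small GTPases, they lay 2.43 kb upstream (3.94 and 4.32) and 9.93 kb downstream (6.3 and 2.9).

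The 15 gene lists of pathways and cell types held 249 genes on these chromosomes, of which 9 (3.61%, 1.67 to 6.75) had a member, an interval that includes the 2.47% of all genes. In the BMP pathway 2 of 24 genes had one. Nog, the secreted BMP antagonist noggin, had a site 3.01 kb downstream (2.12 and 2.32) that overlapped H3K4me3 in both states and a site 17.6 kb upstream (2.72 and 2.45) with 3 SMAD boxes. Bmpr1b, a type I BMP receptor, had a site 3.36 kb upstream (3.48 and 2.95) with 4 SMAD boxes. No member lay in the window of the BMP target genes Id1 to Id4 or of Smad6 and Smad7.

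Olig1, a bHLH factor of oligodendrocytes, had a member 0.944 kb downstream of its TSS at chr16:91270590-91270842, with values of 3.18 and 2.53. It carried the composite element and overlapped H3K4me3 in both states. Among the other list genes were Kcna2, a voltage-gated potassium channel (6.37 kb upstream, 4.5 and 2.9), Cpt2 of mitochondrial fatty acid import (14.7 kb upstream, 2.85 and 3.13), Col4a1 of the basement membrane (12.2 kb upstream, 3.16 and 3.29), Cdh5 of endothelium (7.64 kb upstream, 2.37 in both) and Des of muscle and mural cells (2.82 kb upstream, 2.5 and 2.22). In replicate 2 these 5 lay below the median of 3.52 of the whole list. No member lay in the window of any gene of 8 lists: astrocyte and radial glia (20 genes), Notch pathway (16), NFI and quiescence factors (18), cell cycle (20), G protein-coupled receptors (18), neuron (15), microglia (12) and EGF and FGF signaling (18). Over all genes the share with a member was 2.47%, so counts of 0 in lists this short lie near it.

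Members were spread over the genome. By chromosome they made up between 0.86% of merged sites (56 of 6508 on chromosome 11) and 2.22% (79 of 3562 on chromosome 18), and no interval of 200 kb held more than 5. The densest 3 intervals each held 5. In the interval at chr14:17912683-18112682, 3 lay in introns of Thrb, the thyroid hormone receptor beta, and 2 in the sequence beside it, 5 of 12 merged sites there, with fold enrichments of 2.63 to 3.81 in replicate 1 and 2.45 to 3.44 in replicate 2. The interval at chr1:84993328-85193327 held the uncharacterized genes C130026I21Rik, A530032D15Rik and Gm10553, with 5 of 49 sites, values of 1.96 to 2.96 and 1.61 to 2.79 and 46.6% repeat-masked sequence in the windows. The interval at chr17:13426227-13626226 held no protein-coding gene and 5 of 28 sites, with values of 2.29 to 3.38 and 1.95 to 3.21. Leaving all 15 of these members out gave 1753 members and a composite share of 1.77%.

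Of the regions that the study took up by name, one near Aqp4 and one in Fgf1 were looked up, and neither was a member. The site upstream of the water channel gene Aqp4, 10.5 kb from its TSS, fell in the class labeled reopened sites. It had fold enrichments of 6.93 and 6.53 in quiescent cells, no peak in activated cells and 8 and 7.31 in reactivated cells. The intronic Fgf1 site, in a growth factor gene, had 4.89 and 5.22 in quiescent and 5.51 and 5.06 in reactivated cells, again with no activated peak. Both were taller than the median member in both quiescent libraries, and neither held the composite element or the SMAD palindrome.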

How the data were processed

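ATAC-seq and H3K4me3 peak lists of NSPCs were used as deposited. According to the submitters' processing notes and the methods, the authors trimmed reads with Trim Galore 0.4.0, aligned them to mm10 with Bowtie2 2.2.5, handled them with Picard 1.88 and SAMtools 1.3.1 and called peaks per library with MACS2 at an FDR of 0.05; reactivated libraries were downsampled first. The H3K4me3 peaks were broad, called against input with a broad cutoff of 0.01. The deposited lists give fold enrichment, −log10 p and −log10 q values and a score derived from q, with no counts. Input samples had no peak list and were not analysed here.

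Peaks were merged in Python 3.11.15 with pandas and numpy. The summit of the library with the highest within-list percentile of fold enrichment centred each 200 bp window. Motifs were matched exactly in GRCm38.p6, TSSs came from GENCODE M21, and shares have exact (Clopper-Pearson) 95% intervals. Sites are not replicates, so no test was run. Merging, class calls and motif searches were tested on simulated data. Named sites were the 12 tallest members, the 10 tallest at a coding promoter, the 10 genes and 3 intervals of 200 kb with most members, list genes with a member, the 5 tallest with H3K4me3 in quiescent cells alone, and the study's Aqp4 and Fgf1 regions. Members, lists and comparisons were chosen with earlier results of these data known. Alternatives were stricter or equal-length lists, other merging, each library left out in turn, and other promoter, gene and motif windows. A few genes and sequences that these rules name are not reported here.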

Additional observations from a re-analysis of the deposited data

How the results depend on the processing

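Of 159 alternative values, 122 stayed within a set range. For shares this was the interval of the reported value, and for counts 1.5 times of it. For median fold enrichments it ran from the lower to the upper quartile of members. That was 2.9 to 4.21 in quiescent replicate 1 and 2.6 to 3.67 in replicate 2. Such quartiles give the spread of members and not an interval of the median, so this rule does not show that medians were stable. With lists of equal length, medians of 3.99 and 3.52 counted as within it. No paired analysis was possible because the values come from no test that could hold a block, and shared replicate numbers entered only the held-out check. With a −log10 q of at least 10 there were 659 members near 175 genes, median fold enrichments of 5.33 and 4.51, no NFI palindrome (0%), a composite share of 2.88% and a held-out share of 64%. With lists cut to 46071 peaks each there were 3596 members near 1089 genes, with a promoter share of 9.71%, an H3K4me3 share of 3.84%, a SMAD box share of 54.7%, a composite share of 0.973% and a held-out share of 52.8%. Reopened sites then numbered 1028, against 3646 with the full lists, so the larger of the 2 classes changed with list length. The promoter share was 13.1% within 2 kb and 4.19% for protein-coding TSSs alone, and 1029 genes were the nearest within 100 kb. The held-out share was 30% in the reverse direction. In 100 bp windows the NFI palindrome share was 0% and the SMAD box share 37.8%, and in whole sites the latter was 70.4%; both SMAD box alternatives were chosen after seeing the data. Leaving out each library in turn gave 1823 to 6515 members, 534 to 2096 genes, promoter shares of 7.3% to 9.33%, H3K4me3 shares of 1.41% to 2.28% in quiescent cells and from 19 of 1823 to 89 of 4738 members in activated cells, SMAD palindrome shares of 0.445% to 0.987%, NFI palindrome shares of 0.0378% to 0.108%, NFI core shares of 38.8% to 51.8%, SMAD box shares of 50.4% to 57.8%, composite shares of 0.599% to 1.7% and median fold enrichments of 3.02 to 3.55 in replicate 1 and 2.45 to 3.13 in replicate 2. The highest counts came from leaving out quiescent replicate 1, since 1 quiescent list then sufficed, and the lowest from leaving out activated replicate 2. The cause of the other shifts was not tested. With 2 libraries per state and no read counts, a missing peak cannot be told apart from low depth.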

Other observations

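Gene bodies, a view chosen after the values were seen, placed members in 820 of 20807 protein-coding genes (3.94%), of which 34 (0.163%) held at least 3. Reopened sites, which number 3646, lay in 7.9% of genes, with at least 3 in 0.471%, and activation sites in 8.25%, with at least 3 in 0.582%. C130026I21Rik, in the repeat-rich interval on chromosome 1, held most, with 5 of 71 merged sites. Celf2, an RNA-binding protein, Csmd1, Farp1 and Nav2, a gene of axon growth, held 4 each among 41, 49, 34 and 94 merged sites. Zmat4 held 4 of 14 and Grm5, a metabotropic glutamate receptor, 3 of 14. Csmd1 spans 1643 kb and Celf2 970 kb.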
